A study of Mus musculus with 4 samples.

Results

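PJ34 is an inhibitor of poly(ADP-ribose) polymerases (PARPs), the enzymes that build chains of ADP-ribose on proteins, many of them at breaks in DNA. The response to 20 μM PJ34 of neural stem/progenitor cells (NSPCs) from wild-type mouse embryos was read from the 2 arrays titled wild-type among 4 arrays in all. NSPCs divide as neurospheres, floating clusters kept in growth by EGF and FGF, and they give rise to neurons and glia once these factors are withdrawn. The labels give the strain Slc:ICR for all groups, and the study's methods name the RIKEN BioResource Center as the source of the *Trp53* mutant mice without their genetic background. Cells were taken at embryonic day 13.5 and grown in DMEM/F-12 with B-27, EGF and FGF-basic at 20 ng/ml each. The 4 groups of RNA were wild-type NSPCs with 20 μM PJ34, wild-type NSPCs without it, and *Trp53*-/- NSPCs, which lack the gene of p53, with and without it. On every array Cy5 marked the RNA of treated cells and Cy3 that of their untreated controls, and the 2 arrays of a genotype held RNA prepared independently. The time of treatment is not given in the sources used here. The number of embryos behind each culture is not given in them either, so the p-values measure the spread between these RNA preparations. Because the dyes were not swapped, the effect of PJ34 and any preference of 1 dye for a probe cannot be told apart within a genotype, whereas a preference shared by all arrays cancels in the difference between genotypes.

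p53 is a transcription factor that is held at a low level by *Mdm2*, its ubiquitin ligase, and that accumulates after damage to DNA. Its target genes stop the cell cycle (*Cdkn1a*, the gene of p21), start apoptosis through death receptors (*Fas*, *Tnfrsf10b*) or through BH3-only proteins at the mitochondrion (*Bbc3*, *Pmaip1*), and repair DNA. In neural progenitors, Notch signalling through *Hes1* and *Hes5* holds back neuronal differentiation, and FGF signalling sustains division.

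The array carried 55681 probes. In the PJ34 channel of wild-type replicates 1 and 2, 27122 and 27154 probes were well above background, and in the control channel 24536 and 21503 were. No spot was saturated. Unless another scale is named, each value is a log2 ratio, PJ34 over control, so that 1 is a 2-fold increase and -1 a 2-fold decrease, and all tests are those of limma over the 4 arrays with Storey's *q*. A gene was called when *p* and *q* were below 0.05 and the change was more than 2-fold. All 20 listed markers of neural stem and progenitor cells were well above background in both channels of both wild-type arrays, among them *Nes* and *Sox2*. Of the markers of other cells, 11 of 15 for microglia and macrophages, 7 of 14 for endothelium, 9 of 12 for mesenchyme and 7 of 10 for red blood cells had no probe that passed the filter on dim signals. On the array of *Trp53*-/- replicate 2 the Y-linked *Eif2s3y* had 4.22 and *Ddx3y* 3.12, against -0.20 and -0.20 in *Trp53*-/- replicate 1 and between 0.14 and 0.84 on the wild-type arrays, so that the main counts of differences between genotypes are given without that array too.

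In wild-type NSPCs 58 genes rose with PJ34 (0.287% of the 20220 genes tested) and 43 fell (0.213%). With *q* below 0.05 at any fold change, 2749 genes were higher (13.6%) and 2281 lower (11.3%). Most of the response was thus below 2-fold in size. The median log2 ratio of the 58 increases was 1.52 in replicate 1 and 1.25 in replicate 2, and 39 of them were past 2-fold on both arrays. The median of the 43 decreases was -1.07 and -1.18, with 24 past 2-fold on both. Of the 58 increases, 50 were larger in replicate 1, where 50.5% of all genes had the larger absolute log2 ratio. The split depended on the normalization. With each array centred on the median of all spots in place of loess, which put the median of all genes tested at 0.46, the counts were 1180 and 2, with centring on the kept probes they were 142 and 15, and with the ratios of the scanner software 382 and 178. Leaving out wild-type replicate 1 gave counts of 55 and 61, and leaving out replicate 2 gave 100 and 51; in these fits wild-type rests on 1 array, and the spread comes from the *Trp53*-/- arrays alone.

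**Figure D1:**
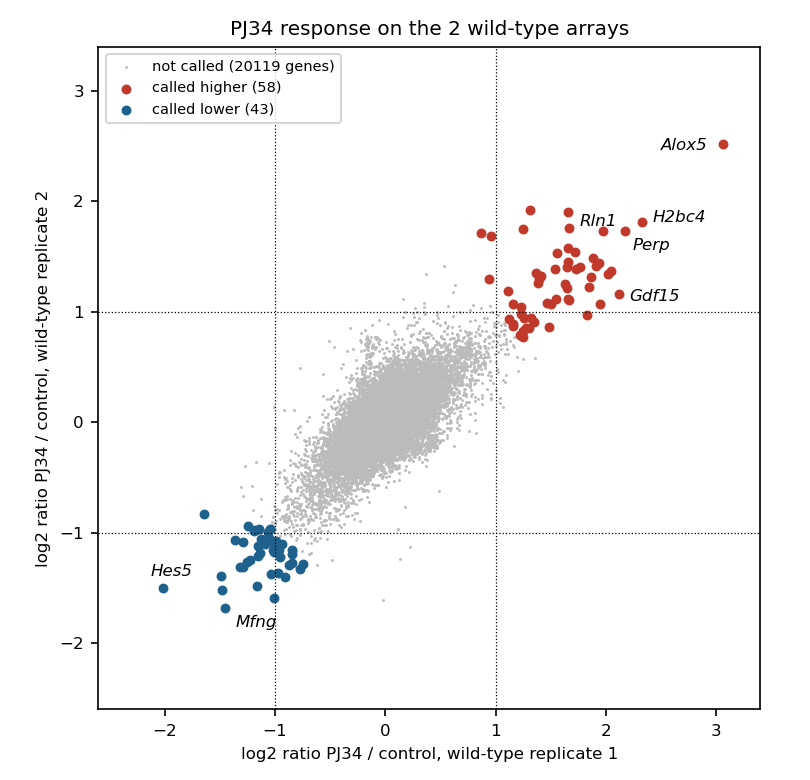
Log2 ratio of PJ34 over control of each gene tested on wild-type replicate 1 (x axis) and replicate 2 (y axis), with the 58 genes called higher in red, the 43 called lower in blue, all others in grey and dotted lines at 2-fold. Across all genes the correlation of the 2 arrays was 0.701 (genes are not independent replicates), and Alox5 stands farthest from the others, at 3.06 and 2.52.

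The largest increase was that of *Alox5*, the 5-lipoxygenase that begins the synthesis of leukotrienes (chromosome 6, 116360326 to 116360385 of mm9). Its log2 ratio was 3.06 in replicate 1 and 2.52 in replicate 2, a 6.93-fold mean change (2.79 ± 0.38, SD, n = 2 arrays, *q* = 3.33e-06). On the scale of normalized log2 intensity, its control signal was 7.02 and 7.20 and its PJ34 signal 10.08 and 9.72. In *Trp53*-/- NSPCs *Alox5* had -0.28 and -0.25. None of the other 7 genes tested of eicosanoid synthesis was called, and *Alox5ap*, whose product presents the substrate to 5-lipoxygenase, had -0.01 and -0.10. Genes outside the largest changes, the called or main list members and the study's own genes were chosen for naming after their values were seen.

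Several of the next largest increases belonged to genes with no listed link to p53. *Ppp2r2c*, a regulatory subunit of protein phosphatase 2A, had 1.97 and 1.73 (*q* = 3.05e-05). *Cox6b2*, the testis form of a subunit of cytochrome c oxidase, had 1.65 and 1.90 (*q* = 9.97e-06). *Rln1*, which encodes the hormone relaxin, had 1.67 and 1.76 and the same *q*. In *Trp53*-/- NSPCs the means were 0.49 for *Ppp2r2c*, 0.56 for *Cox6b2* and 0.00 for *Rln1*. *Svop*, which encodes a protein of synaptic vesicles, had 2.02 and 1.34, and *1700007K13Rik*, a gene of unknown function, had 1.72 and 1.54. *Dcpp3* had 1.31 and 1.92 in wild-type and 0.66 and 2.80 in *Trp53*-/- NSPCs, a spread larger than the difference between genotypes, and the close copies of the *Dcpp* family leave uncertain which of them its probe reads. It was not called with the ratios of the scanner software.

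Among the other called increases were *Dcxr*, a reductase of sugars and carbonyls, with 1.65 and 1.45, and *Celf5*, which encodes an RNA-binding protein, with 1.54 and 1.39. The 2 other kept probes of *Celf5* had means of 0.14 and 0.57, short of 2-fold. *Pcsk6*, a proprotein convertase, had 1.37 and 1.35, and *Dapk1*, a kinase linked to cell death, 1.55 and 1.11. *Crispld2* differed from these in that its increase was as large without p53, with 1.55 and 1.53 in wild-type against 1.58 and 1.82 in *Trp53*-/- NSPCs. The unnamed probe A_55_P2077628 lies on chromosome 11 at 120587140 to 120587199 (mm9), next to the probe of *Dcxr* (120587276 to 120587416), and had 1.66 and 1.58, without a call in the ratios of the scanner software. Of the 58 increases, *Etnk2*, an ethanolamine kinase, and *Grhl3*, a transcription factor of epithelia, were not well above background in the control channel of either array. The size of the increase is therefore uncertain, with 1.50 and 1.07 for *Etnk2* and 1.28 and 0.86 for *Grhl3*. With the control raised to at least the dimmest signal well above background, the mean was 1.86-fold for *Grhl3* and unchanged at 2.44-fold for *Etnk2*. These means come from channel values after normalization that are open to dye bias. The other kept probe of *Etnk2* had a mean ratio of 0.14. All 21 further kept probes of 15 increases were above 0 as well, against 54.7% of the further kept probes of all genes, 17 of them at *q* below 0.05 and 7 past 2-fold, with a median of 0.57.

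**Figure D2:**
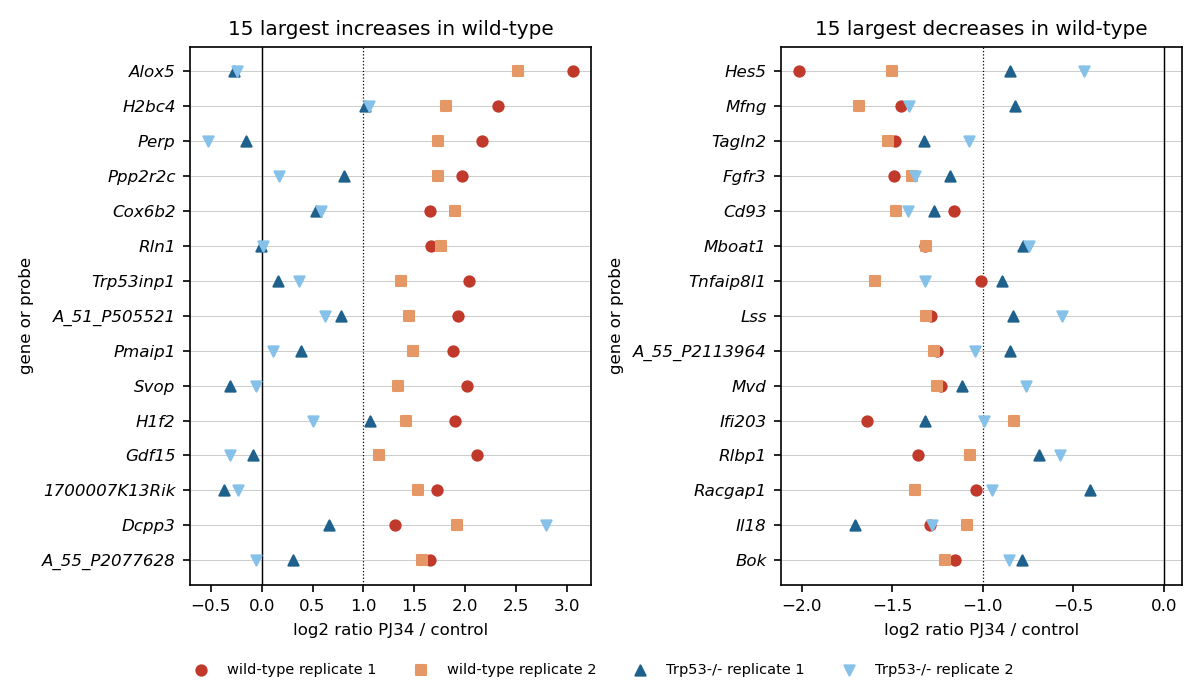
Log2 ratio of PJ34 over control on each of the 4 arrays for the 15 largest called increases (left) and decreases (right) of wild-type NSPCs, with a dotted line at 2-fold. Most increases stand apart from the Trp53-/- arrays, with Dcpp3 as an exception, while most decreases have the same direction in both genotypes. The wild-type ratios chose these genes, so that the increases stand apart is no separate test.

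Many p53 targets rose. Of 51 listed targets, all with a kept probe, 13 rose and 0 fell by the full criteria. At *q* below 0.05 without a fold limit 36 were higher (70.6%) and 2 lower (3.92%). Over all genes 0.287% rose, and 13.6% were higher and 11.3% lower at *q* below 0.05. The median of the list was 0.71 in replicate 1 and 0.41 in replicate 2, against 0.02 and 0.03 over all genes. In *Trp53*-/- NSPCs the median was -0.08 and -0.04. There 3 of the 51 were higher and 11 lower at *q* below 0.05, against 12.8% and 10.5% of all genes. The study chose 8 of these genes on these same arrays, and the other 43 had 6 called increases and a median of 0.49. The list was written with earlier results of these data known, so these 43 are no separate test either. With median centring on all spots the list had a median of 1.16, above the 0.46 of all genes.

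The promoters of the targets were searched for the p53 response element, to show where in these genes the factor's sequence lies. RefSeq promoters (GRCm38.p6) were matched for 42 of the 51 targets, and the 250 bases before the gene start were searched for 2 adjoining copies of the p53 half-site, each with an exact core CNNG whose N is A or T, with up to 2 mismatches outside the cores. The element reads alike on both strands. It was found in 3 of the 42 promoters (7.14%), among 0.163% of the promoters of all 27025 genes. The 3 windows are printed 5′ to 3′ on the strand of the gene with the element in capitals.
Cdkn1a (chr17:29090908-29090967, plus strand): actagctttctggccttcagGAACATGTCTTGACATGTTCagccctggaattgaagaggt
Ckap2 (chr8:22185983-22186042, minus strand): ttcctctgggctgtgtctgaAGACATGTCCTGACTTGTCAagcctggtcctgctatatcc
Rps27l (chr9:66946276-66946335, plus strand): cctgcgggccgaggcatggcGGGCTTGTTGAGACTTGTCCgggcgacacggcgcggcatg
These are matches of letters only, and p53 sites outside the window were not searched. The log2 ratios of the 3 genes differed widely, with 1.84 and 1.23 for *Cdkn1a*, 0.48 and 0.73 for *Rps27l*, which encodes a ribosomal protein-like factor, and 0.39 and -0.04 for *Ckap2*, a protein of the spindle that was not called and did not pass *q*.

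Among the targets that stop the cell cycle or feed back on p53, 3 of 11 rose and 6 of 11 were higher at *q* below 0.05. Over all genes these shares were 0.287% and 13.6%. *Cdkn1a*, the inhibitor of cyclin-dependent kinases, had normalized log2 intensities in the control channel of 11.28 and 12.05 and in the PJ34 channel of 13.12 and 13.28. The probe read for it lies on chromosome 17 at 29237377 to 29237436 (mm9), and its 2 other kept probes had mean ratios of 0.12 and 1.24, so that *Cdkn1a* was not called when the probes of a gene were averaged. *Ccng1*, which encodes cyclin G1, had 1.46 and 1.08, and *Mdm2* had 1.16 and 0.89. *Btg2*, an antiproliferative factor, had 0.86 and 0.51 (*q* = 0.00185), higher on both arrays and short of 2-fold. *Gadd45a* had 0.05 and -0.20, on either side of 0. Among the genes of this role *Plk2* was high in *Trp53*-/- replicate 1 as well, with 1.02 and 0.97 in wild-type and 1.03 and 0.25 in *Trp53*-/- NSPCs.

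The targets that lead to apoptosis were the role with most increases. All 16 were higher on both wild-type arrays, 15 of them at *q* below 0.05 and 6 called. Of all 20220 genes tested, 7972 were higher on both arrays, 13.6% were higher at *q* below 0.05 and 0.287% rose. The median of the 16 was 0.94 in replicate 1 and 0.60 in replicate 2. *Perp*, a membrane protein of desmosomes, had 2.17 and 1.73, *Trp53inp1* had 2.04 and 1.37, and *Pmaip1*, the gene of the BH3-only protein Noxa, had 1.89 and 1.49. In *Trp53*-/- NSPCs the means of these 3 genes were -0.34, 0.26 and 0.25. The death receptor genes had 1.76 and 1.41 (*Tnfrsf10b*) and 1.73 and 1.38 (*Fas*). *Bbc3*, the gene of PUMA, had 1.63 and 1.25. Below 2-fold, *Pidd1*, which activates caspase 2, had 1.03 and 0.91 (*q* = 0.000146), *Apaf1*, the core of the apoptosome, 0.68 and 0.50, and *Bax*, which opens the outer mitochondrial membrane, 0.53 and 0.26 (*q* = 0.0114). The study, with its own processing of these arrays, lists *Pidd1* from the same probe as past 2-fold. *Tnfrsf1a* had 0.39 and 0.04 and did not pass *q*.

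Of 9 targets in DNA repair and nucleotide supply, 1 rose, where 0.287% of all genes did. This was *Mgmt*, which removes alkyl groups from guanine, with 1.40 and 1.30 (2.54-fold, *q* = 1.85e-05) and -0.82 and -0.64 in *Trp53*-/- NSPCs. *Polk*, a translesion polymerase, had 1.00 and 0.29 (*q* = 0.00709), and *Polh*, another one, was lower with -0.46 and -0.32. In the group of metabolism and other roles, 3 of 15 rose. *Gdf15*, a secreted factor of the TGF-β family, had 2.12 and 1.16, the widest spread among the called increases (SD 0.678), and was not called with the ratios of the scanner software. *Sesn2*, a sensor of leucine and stress, had 1.24 and 0.78, and *Abhd4* had 1.22 and 0.79. *Sesn1* had -0.27 and -0.31, so that the 2 sestrins listed moved in opposite directions at *q* below 0.05. Without wild-type replicate 1, *Mdm2*, *Sesn2* and *Abhd4* fell short of 2-fold and were not called.

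**Figure D3:**
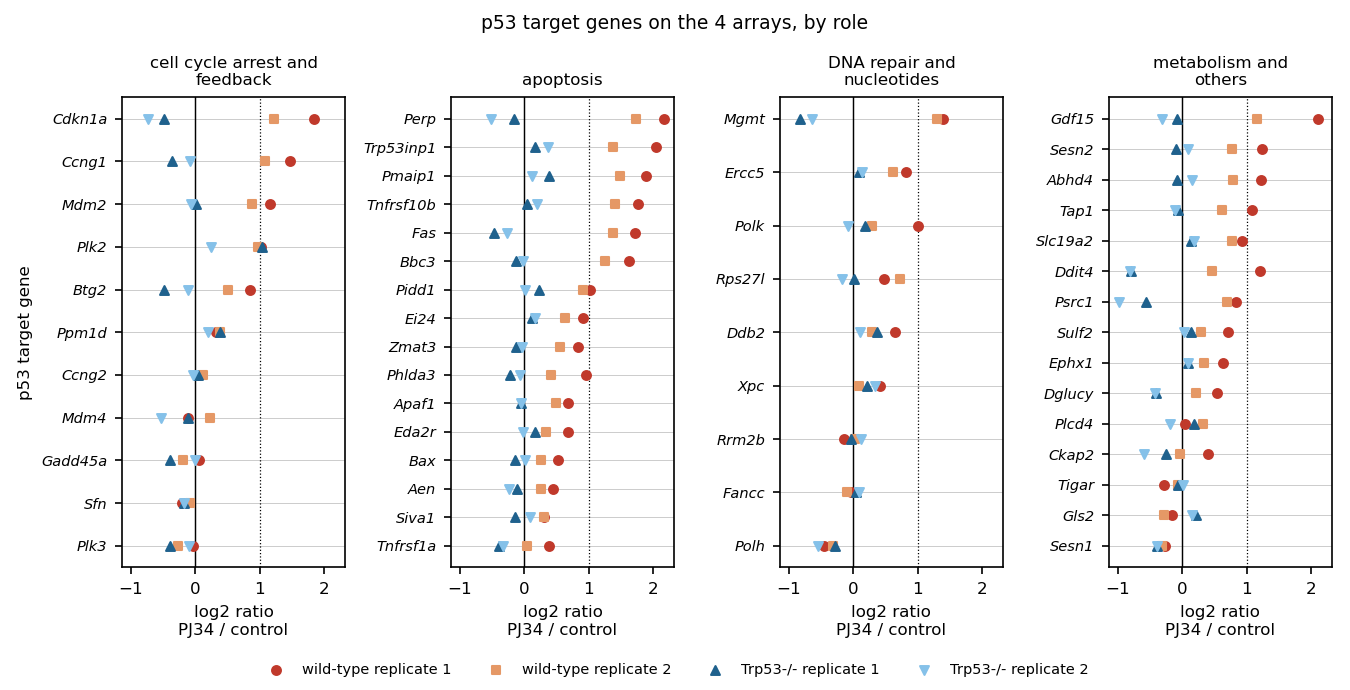
Log2 ratio of PJ34 over control of the 51 p53 target genes on the 4 arrays, in 4 panels by role, with a dotted line at a 2-fold increase. In the apoptosis panel all 16 genes lie above 0 on both wild-type arrays, while their medians on the Trp53-/- arrays are -0.12 and -0.02.

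The difference of the response between genotypes, wild-type minus *Trp53*-/-, was called for 88 genes with the higher value in wild-type (0.435%) and for 8 with the lower (0.0396%). At *q* below 0.05 without a fold limit the counts were 260 (1.29%) and 96 (0.475%). Of the 58 increases of wild-type NSPCs, 31 were among the 88 and none among the 8, and 6 were called higher in *Trp53*-/- NSPCs too, where 18 genes were called in all (0.089%). Of the 43 decreases, *Hes5* alone had a called difference, and all 43 had a mean below 0 in *Trp53*-/- NSPCs, 10 of them called, where 55 genes were called lower in all (0.272%). The wild-type ratios chose these genes and also enter the difference, so the counts describe them and are no separate test. The medians in *Trp53*-/- NSPCs, which the choice did not use, were 0.25 for the increases and -0.78 for the decreases. Without *Trp53*-/- replicate 2, the array with the sex-linked difference, 88 and 8 became 91 and 2 (149 and 22 at *q* below 0.05), and they became 130 and 33 when replicate 1 was left out instead. *Hes5* was not called in the difference without *Trp53*-/- replicate 2 (*q* = 0.0560). With the ratios of the scanner software no difference was called in either direction.

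Among listed p53 targets 14 had a called difference, all higher in wild-type, and 26 passed *q* below 0.05; without *Trp53*-/- replicate 2 these were 16 and 18. *Perp* differed by 2.29, *Cdkn1a* by 2.14, *Mgmt* by 2.08 and *Fas* by 1.93. Each of these was below 0 on both *Trp53*-/- arrays, with -0.48 and -0.74 for *Cdkn1a* and -0.48 and -0.27 for *Fas*. Their differences thus hold a decrease without p53 as well as the wild-type increase. *Psrc1*, a spindle protein, and *Ddit4*, an inhibitor of mTOR signalling, were called in the difference and not in wild-type alone, with *Ddit4* at 1.20 and 0.47 against a *Trp53*-/- mean of -0.80.

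Genes of the cell cycle were lower in wild-type NSPCs with PJ34. Of 34 genes of the G2 and M phases, 2 fell by the full criteria, *Ube2c*, the E2 enzyme of the anaphase-promoting complex, with -0.78 and -1.33, and *Cenpa*, the histone of centromeres, with -0.84 and -1.19. At *q* below 0.05 without a fold limit 32 of 34 were lower (94.1%) and 0 higher, against 11.3% and 13.6% of all genes. The median was -0.52 in replicate 1 and -0.87 in replicate 2, and it was -0.21 and -0.51 on the *Trp53*-/- arrays. *Ccnb1*, the cyclin of mitosis, had -0.67 and -1.19, *Plk1*, a mitotic kinase, -0.48 and -1.25, and *Mki67*, the proliferation antigen Ki-67, -0.38 and -0.82. The decrease was larger in replicate 2 for each of these genes. *Racgap1*, a factor of cytokinesis outside the list, fell with -1.04 and -1.38. With median centring on all spots the list had a median of -0.08, against 0.46 for all genes, and *Ube2c*, *Cenpa* and *Racgap1* were not called. They were not called with centring on the kept probes either, and without wild-type replicate 2 *Ube2c* and *Cenpa* were not.

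None of 41 genes of the S phase was called. At *q* below 0.05 30 were lower (73.2%) and 0 higher, against 11.3% and 13.6% of all genes. The median of the 41 was -0.38 and -0.45, against 0.16 and 0.09 on the *Trp53*-/- arrays. This list thus lay on opposite sides of 0 in the 2 genotypes. Of its genes, 15 had a difference at *q* below 0.05, all lower in wild-type, where 0.475% of all genes were. That count was 3 without *Trp53*-/- replicate 2 and 0 without replicate 1. *Pold1*, the catalytic subunit of DNA polymerase δ, had -0.77 and -0.97, and *Uhrf1*, which guides maintenance of DNA methylation, had -0.78 and -0.96. *Mcm6*, a subunit of the replicative helicase, had -0.59 and -0.76 against a mean of 0.02 in *Trp53*-/- NSPCs. *Pcna*, the sliding clamp, had -0.40 and -0.40, and *Tyms*, thymidylate synthase, 0.12 and 0.20. With median centring on all spots the median of the list turned to 0.23, which was below the 0.46 of all genes. In the G2 and M list, by contrast, no difference between genotypes passed *q* below 0.05, which does not show that the 2 genotypes responded alike.

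Replication-dependent histone genes, which supply new chromatin in S phase, were divided. Of 39 with a kept probe, 4 rose and 0 fell. At *q* below 0.05 9 were higher (23.1%) and 14 lower (35.9%), against 13.6% and 11.3% of all genes. *H2bc4* had 2.33 and 1.81, *H1f2* 1.91 and 1.42, *H2ac18* 1.65 and 1.40 and *H3c15* 1.32 and 0.94. These 4 were higher in *Trp53*-/- NSPCs as well, with means between 0.63 and 1.03, and *H2bc4* alone of them had a called difference. *H3c15* was not called without wild-type replicate 1. Among 11 H2A genes 8 were lower at *q* below 0.05, with *H2ac22* at -0.71 and -0.77, and these 8 were the H2A genes whose response was lower in wild-type than in *Trp53*-/- NSPCs at *q* below 0.05. Without *Trp53*-/- replicate 2 that was so for 1 of the 11. Histone genes of a class are near copies of each other, so a probe may read several of them. Whether the labelling took up all forms of histone RNA alike was not tested, so these ratios need not hold for all histone RNA. The unnamed probe A_51_P505521 on chromosome 13 at 22132591 to 22132650, with 1.93 and 1.45, lies on the chromosome of *H2bc4* and *H1f2* (23784254 and 23832018).

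**Figure D4:**
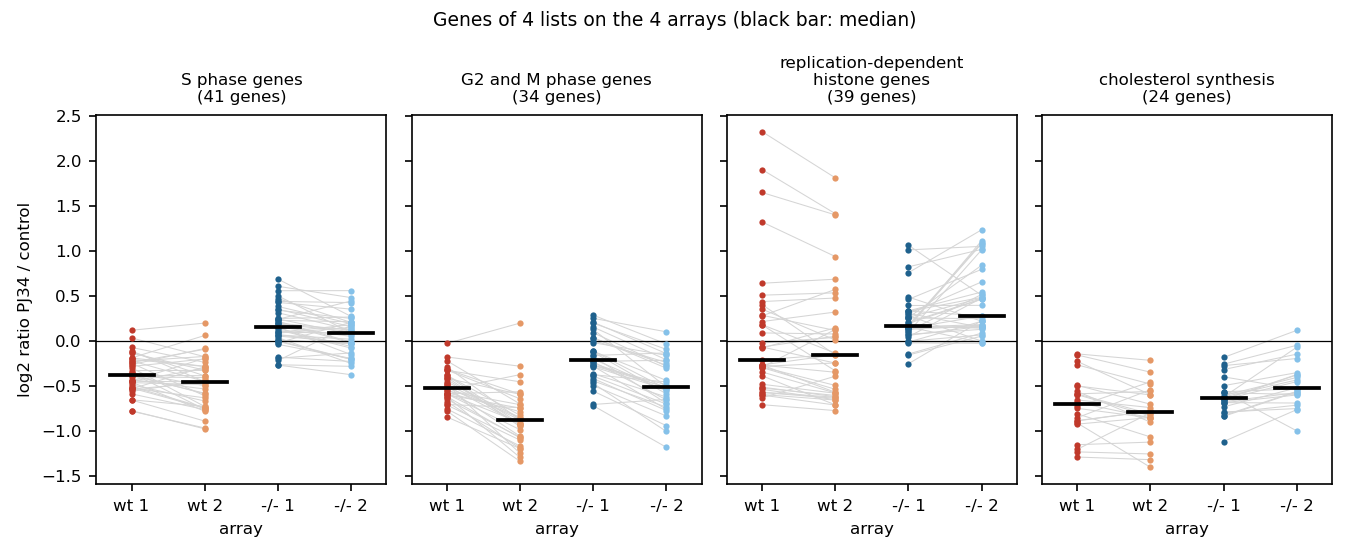
Log2 ratio of PJ34 over control of each gene of 4 lists on the 2 wild-type arrays (wt 1, wt 2) and the 2 Trp53-/- arrays (-/- 1, -/- 2), with grey lines joining the arrays of a genotype and black bars at the medians. The S phase genes lie mostly below 0 in wild-type (medians -0.38 and -0.45) and around 0.16 and 0.09 in Trp53-/- NSPCs, the cholesterol synthesis genes lie below 0 on all wild-type arrays, and 4 histone genes stand above the rest; with median centring on all spots the wild-type S phase median turns to 0.23, below the 0.46 of all genes.

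The genes of cholesterol synthesis were lower together. All 24 with a kept probe had ratios below 0 on both wild-type arrays, 23 of them at *q* below 0.05 (95.8%), and 4 fell past 2-fold. Of all 20220 genes tested, 6231 were below 0 on both arrays, 11.3% were lower at *q* below 0.05 and 0.213% fell. *Lss*, which makes lanosterol, had -1.29 and -1.32, *Mvd*, an enzyme of the mevalonate pathway, -1.23 and -1.25, and *Dhcr7*, the last reductase of the pathway, -0.91 and -1.40. *Srebf2*, the transcription factor of the pathway, had -0.50 and -0.60. The median was -0.70 and -0.79 in wild-type and -0.63 and -0.52 in *Trp53*-/- NSPCs, where 19 were lower at *q* below 0.05 (10.5% of all genes were), and no difference between genotypes passed *q* below 0.05. The untested bias of the dyes applies to these decreases, which had 1 direction on all 4 arrays. With median centring on all spots the median was -0.10 against 0.46 for all genes, and none of the 4 was called; *Dhcr7* was not called with centring on the kept probes or without wild-type replicate 2 either.

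Promoter sequences of the lists that were lower were read over the same 250 bases, without the mismatches allowed in the p53 element. The motifs were the CCAAT box, on the opposite strand ATTGG, the CHR element TTTGAA, there TTCAAA, and the sterol regulatory element. All were searched on both strands. Of 17 cholesterol synthesis genes with a matched promoter, 16 held a CCAAT box (94.1%), against 37.5% of all genes. All genes here are the 27025 with a promoter, which include genes not tested on the arrays. The sterol regulatory element was matched in 0 of the 17 and in 0.215% of all genes (58 of 27025). So rare a match cannot show whether the 17 promoters hold a less exact sterol element. Of 27 genes of the G2 and M phases, 23 held a CCAAT box (85.2%) and 10 a CHR element (37%), where 18.3% of all genes had the latter. The 43 called decreases together, of which 27 were matched, had a CCAAT box in 51.9% and a CHR element in 7.41%. The promoters of 39 called increases had a CCAAT box in 48.7% and those of the p53 targets in 61.9%. Of 34 genes of the S phase, 55.9% held a CCAAT box and 11.8% a CHR element. In no promoter of the cholesterol or G2 and M lists did a CHR element overlap a CCAAT box. The windows of called decreases are shown with the motif in capitals, the CCAAT box for *Lss*, *Mvd* and *Dhcr7* and the CHR element for *Ube2c*.
Lss (chr10:76531523-76531567, plus strand): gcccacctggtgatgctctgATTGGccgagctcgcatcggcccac
Mvd (chr8:122443425-122443502, minus strand): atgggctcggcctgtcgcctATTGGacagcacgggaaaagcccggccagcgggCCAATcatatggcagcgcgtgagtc
Dhcr7 (chr7:143830109-143830189, plus strand): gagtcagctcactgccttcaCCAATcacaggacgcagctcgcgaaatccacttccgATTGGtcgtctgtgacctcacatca
Ube2c (chr2:164769880-164769925, plus strand): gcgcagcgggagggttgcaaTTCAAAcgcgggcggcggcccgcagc
A match of letters says nothing about whether a factor is bound.

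*Hes5*, an effector of Notch, had -2.01 and -1.50 (the largest decrease called, 3.38-fold lower, *q* = 3.50e-05), and its control signal of 11.56 and 12.48 dropped to 9.55 and 10.98 in normalized log2 intensity. *Mfng*, a glycosyltransferase that modifies Notch receptors, had -1.45 and -1.68. *Hes5* had -0.85 and -0.44 in *Trp53*-/- NSPCs, while *Mfng* had -0.82 and -1.41 there. Of 24 genes of the Notch pathway these 2 fell and 0 rose. At *q* below 0.05 8 were lower and 8 higher (33.3% each, against 11.3% and 13.6% of all genes). The lower group held the receptor *Notch1*, the ligands *Dll3* and *Dll1* and, among the listed effectors and co-factors, *Hes6*, *Nrarp* and *Hes1*. The higher group held the receptors *Notch2* and *Notch3* (0.95 and 0.26) and 4 ligands, *Jag1* with 0.58 and 0.47 among them.

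Of 23 genes of FGF signalling, *Fgfr3* fell, with -1.49 and -1.39, and none rose. Its *Trp53*-/- ratios of -1.18 and -1.37 lay close by. The other kept probe of *Fgfr3* had a mean of -0.59 in wild-type, short of 2-fold. Among the receptors *Fgfr1* had -0.02 and -0.27 and *Fgfr2* 0.06 and 0.01. Of 18 feedback genes and effectors, 7 were higher, 1 lower and 10 neither at *q* below 0.05. *Dusp6*, the phosphatase of ERK, had 0.56 and 0.42, *Egr1* 0.58 and 0.67, and *Etv4* was the lower gene, with -0.45 and -0.78. Feedback genes of Hedgehog, BMP and Wnt signalling had no call among 24, with 3 higher and 3 lower at *q* below 0.05, 12.5% each against 13.6% and 11.3% of all genes.

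The other large decreases had varied roles. *Tagln2*, an actin-binding protein, had -1.48 and -1.52, *Cd93*, a receptor known from endothelium, -1.16 and -1.48, and *Mboat1*, an acyltransferase of phospholipids, -1.32 and -1.32. *Il18*, a cytokine, had -1.29 and -1.09, and *Bok*, a member of the Bcl2 family, -1.15 and -1.21. In *Trp53*-/- NSPCs the means of *Tagln2*, *Cd93* and *Il18* were -1.20, -1.34 and -1.49. *Tnfaip8l1* had -1.01 and -1.60 and *Rlbp1*, which binds retinaldehyde, -1.36 and -1.07. *Ifi203* had -1.64 and -0.83, and 3 other probes of this gene ranged from -0.85 to 0.01, so that its call rests on 1 probe, and it was not called without wild-type replicate 1. With median centring on all spots the named decreases other than *Hes5* and *Mfng* lost their calls. All 43 called decreases were well above background in both channels of both arrays, and 18 of 19 further probes of 13 of them had the same sign.

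Of the 20 markers of neural stem and progenitor cells none was called. At *q* below 0.05 7 were lower (35%) and 3 higher (15%), against 11.3% and 13.6% of all genes. *Nr2e1*, a nuclear receptor of neural stem cells, had -0.67 and -0.55, while *Nes* had 0.21 and -0.21 and *Sox2* -0.21 and -0.08. *Fabp7*, a fatty acid-binding protein of radial glia, was higher with 0.31 and 0.63. The median of -0.16 and -0.21 turned to 0.48 with median centring on all spots, where all genes had 0.46. Since RNA of a whole culture was measured, fewer cells of a type and less RNA per cell cannot be told apart.

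Markers of differentiated cells had no called increase. Their counts at *q* below 0.05 stand beside 13.6% of all genes higher and 11.3% lower. Of 15 neuron markers with a kept probe 5 were higher at *q* below 0.05, among them *Map2* with 0.39 and 0.29, and 0 were lower, with *Tubb3* at 0.05 and -0.25. Their median was 0.10 and 0.13. Of 13 astrocyte markers 3 were higher and 2 lower, and *Gfap*, the intermediate filament of astrocytes, had -0.28 and -0.13 with its signals well above background on 1 of 2 arrays in each channel. Of 14 markers of the oligodendrocyte lineage 0 were higher and 4 lower, with *Pdgfra*, a receptor of oligodendrocyte precursors, at -0.56 and -0.30. The kept markers of microglia and macrophages had 1 of 4 higher, those of endothelium 1 of 7 higher and 3 lower, those of mesenchyme 1 of 3 lower and those of red blood cells 0 of 3 in either direction.

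Of 22 genes of the PARP family, of ADP-ribose removal and of NAD supply none was called, with 4 higher (18.2%) and 6 lower (27.3%) at *q* below 0.05. The shares over all genes were 13.6% and 11.3%. *Parp1* had -0.20 and -0.60 (*q* = 0.0146), *Parp2* -0.28 and -0.25 (*q* = 0.0375), and *Parg*, which degrades the chains, -0.01 and 0.06. *Trp53* itself had -0.15 and -0.30 (*q* = 0.0659). Among 27 genes of DNA damage checkpoints and repair none was called, and 5 were higher and 7 lower, with the kinase gene *Atm* at -0.15 and -0.07, *Chek2* at -0.28 and -0.45 and the repair glycosylase *Ung* at 0.71 and 0.64. The machinery of apoptosis outside the p53 list had *Bok* as its only call among 25, with *Bcl2l1* at 0.63 and 0.35 and *Mcl1* at 0.22 and 0.18.

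Stress programmes had few calls. Over all genes 13.6% were higher and 11.3% lower at *q* below 0.05, and lists near these shares are not set apart by their counts. In the integrated stress response *Sesn2* was the only call among 22, with 4 higher and 7 lower at *q* below 0.05. *Asns*, asparagine synthetase, had -0.67 and -0.60, *Ddit3* -0.02 and 0.27, and *Trib3* -0.11 and -0.03 against a mean of -0.97 in *Trp53*-/- NSPCs (difference at *q* = 0.0171, and 0.0686 without *Trp53*-/- replicate 2). *Slc1a5*, a transporter of glutamine, had -0.92 and -0.98 against a mean of 0.07 and a called difference of -1.02, which was not called without that array. Of 12 heat shock genes and chaperones of the endoplasmic reticulum 7 were lower and 2 higher, and of 10 targets of NRF2 1 was lower and 1 higher. Of 10 interferon-stimulated genes with a kept probe 4 were lower, of 5 targets of the aryl hydrocarbon receptor *Tiparp* was higher with 0.20 and 0.30, and of 22 genes of glycolysis and hypoxia 1 was higher and 2 lower. Of 16 actin-linked targets of SRF and YAP *Tagln2* was the only call, with 2 higher and 5 lower at *q* below 0.05.

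**Figure D5:**
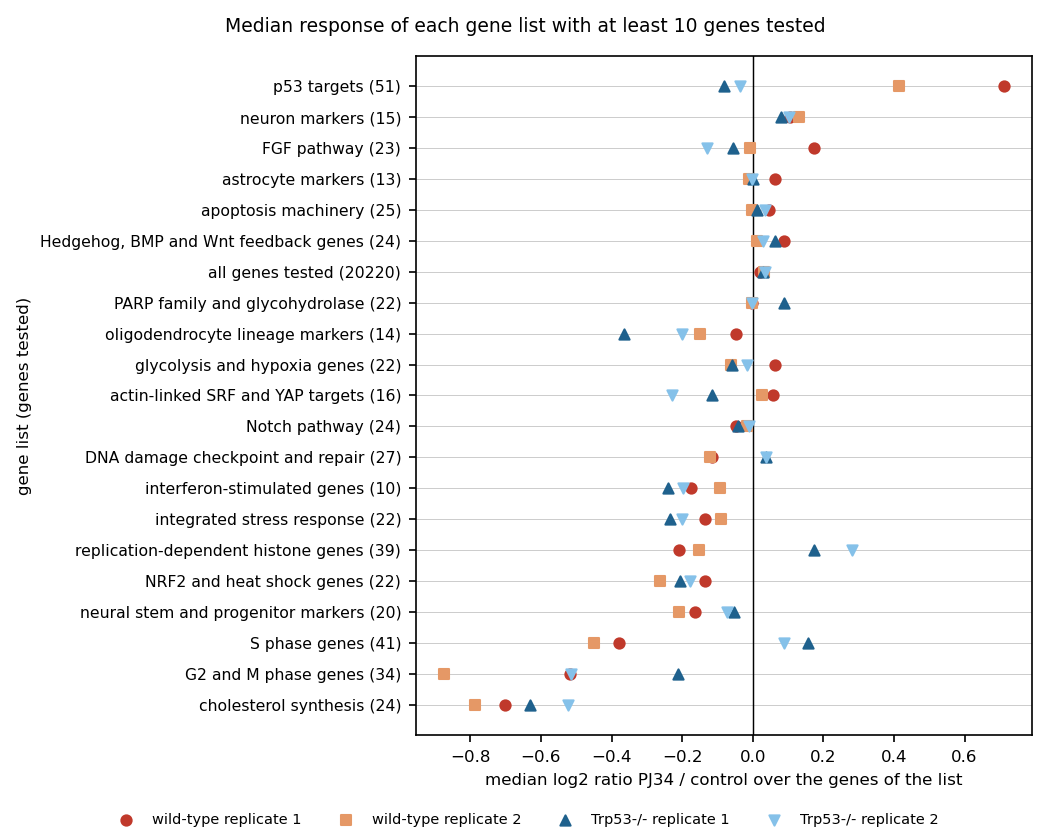
Median log2 ratio of PJ34 over control of each gene list with at least 10 genes tested on each of the 4 arrays, with the number of genes in parentheses and the lists ordered by their wild-type median. The p53 targets lie farthest above 0 in wild-type (0.71 and 0.41) and near 0 in Trp53-/- NSPCs, and the cholesterol synthesis genes (-0.70 and -0.79) and G2 and M phase genes (-0.52 and -0.87) lie farthest below 0; with median centring on all spots the median of all genes moves to 0.46 and the S phase, histone and progenitor medians turn positive.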

How the data were processed

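Total RNA of neural stem/progenitor cells was labelled with the Low Input Quick Amp kit and hybridized to 2-colour SurePrint G3 Mouse GE arrays, and the authors extracted spot intensities with Feature Extraction 10.7.3.1. The deposited intensity values (mean foreground and median background of each spot) were not yet normalized. The deposited log10 ratios of the scanner software, turned into log2, were 1 of the alternatives. The normalized table of the whole series holds 4 columns that were not matched to a sample and were not used.

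Background was corrected by normexp with an offset of 50, and ratios were normalized within each array by loess in limma 3.58.1 (R 4.3.3), with control and outlier spots at weight 0. Replicate spots were averaged per probe. A signal counted as well above background where more than 0.5 of a probe's spots were, and probes well above background in either channel on both arrays of a genotype were kept, 27035 of 55681 (48.6%), and a gene was read from its probe of highest mean intensity, except 8 p53 targets read from the probe that the study names. RefSeq named 26403 probes. Positions on the array are those of mm9, and promoters are those of GRCm38.p6. A mean per genotype was fitted over all 4 arrays, which left 2 residual degrees of freedom (10.3 after moderation), with Storey's q over all 20220 genes. The number of arrays limits the precision. The genes named were the 15 largest called changes in each direction, called and main members of the gene lists, and genes that the study names. The members and lists were chosen with earlier results of these data known, so no test was run over a list. Some members that the lists count are not reported here by name. Scripts were tested on simulated data. The alternatives were other background corrections, ratios, normalizations, filters, probe rules, adjustments and tests, a replicate block, and each array left out.

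The same-numbered arrays of the 2 genotypes had a correlation of deviations from the group means of -0.18, and the labels tie the numbers to no shared preparation, so the numbers were not taken to pair the arrays.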

Additional observations from a re-analysis of the deposited data

Results flagged for a closer look

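The response to PJ34 differed between genotypes, by the test of the difference itself (wild-type minus *Trp53*-/-, limma), in 88 genes with the higher value in wild-type NSPCs and in 8 with the lower. Among the named genes with a called response, the difference in log2 ratio was 3.05 for *Alox5*, 2.29 for *Perp*, 2.14 for *Cdkn1a*, 2.08 for *Mgmt*, and 1.93 for both *1700007K13Rik* and *Fas*. It was 1.86 for *Svop*, 1.83 for *Gdf15*, 1.71 for *Rln1*, 1.51 for *Bbc3*, 1.50 for *Ccng1*, 1.49 for the probe A_55_P2077628 and 1.46 for *Tnfrsf10b*. It was 1.45 for *Trp53inp1*, 1.44 for *Pmaip1*, 1.37 for *Ppp2r2c*, 1.22 for *Cox6b2*, 1.05 for *Mdm2*, 1.04 for *H2bc4* and 1.01 for *Sesn2*. *Hes5* was the named gene with the lower value in wild-type NSPCs, with a difference of -1.11.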

How the results depend on the processing

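With 2 arrays per genotype and no swap of dyes, the counts of genes depended on the normalization and on the test. Against 58 higher and 43 lower genes, an offset of 16 gave 105 higher genes. The scanner software's log ratios gave 382 and 178 (1198 and 989 at q below 0.05 without a fold limit). Median centring on all spots gave 1180 and 2 (13490 and 181), and on the kept probes 142 and 15 (5987 and 4721). Limma's treat against 2-fold left 5 and 0, with and without a fold limit. For the difference between genotypes (88 and 8), an offset of 16 gave 38 and 2, the scanner's ratios 0 and 0, and treat 2 and 0, while the lower count was 31 and 13 with centring on all spots and on the kept probes and 4 with the mean of a gene's probes. Leaving out each array in turn gave 55 to 100 higher and 43 to 61 lower genes, 1630 to 2794 and 1236 to 2285 without a fold limit, and differences of 91 to 130 and 2 to 33. A genotype left with 1 array was assumed to vary like the other. The cause was not tested.

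With the replicate number as a replicate block the counts were 58 and 43, 2418 and 1994 without a fold limit, and 96 and 12 for the difference. Numbers crossed between genotypes, added after the data were seen, gave 58 and 43, and 96 and 10. No called named gene changed sign under any alternative run. Of 45 called named genes, 40 lost the call with treat, 17 with centring on all spots, 6 with centring on the kept probes, 5 without wild-type replicate 1, 3 without wild-type replicate 2, 3 with the scanner's ratios (*Gdf15*, *Dcpp3* and A_55_P2077628) and 2 with the mean of a gene's probes (*Ifi203* and *Cdkn1a*).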

Other observations

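The other genes with a called difference and the lower response in wild-type NSPCs, beside *Hes5* and *Slc1a5*, were *Sp8*, a transcription factor of the developing forebrain, *Tmem132e*, *Ccdc177* and 3 histone genes, all chosen for naming after their values were seen. *Sp8* had -0.90 and -0.50 in wild-type against 0.18 and 1.21 in *Trp53*-/- NSPCs. The linker histone gene *H1f1* had -0.28 and -0.24 against 0.83 and 1.02. *H4c4* had -0.34 and -0.57 against 0.16 and 1.08, and *H4f16* -0.23 and -0.47 against 0.28 and 1.22, with probes that may read other copies of these genes. The *Trp53*-/- values of *Sp8*, *H4c4* and *H4f16* were thus higher in replicate 2, the array with the sex-linked difference. Without that array *H1f1* was called and these 3 genes, *Tmem132e* and *Ccdc177* were not.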
